A study of Mus musculus with 8 samples.

Results

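Oxidative phosphorylation is the part of cell respiration in which 4 enzyme complexes of the inner mitochondrial membrane pass electrons from NADH and succinate to oxygen. Complexes I, III and IV pump protons as they do so, complex II does not, and a further complex, ATP synthase (complex V), uses the proton gradient to make ATP. Its genes were taken as the protein-coding genes whose symbols begin with Nduf (complex I and its assembly factors), Sdh (complex II), Uqcr (complex III), Cox with a number from 4 to 8 (complex IV) or Atp5 (complex V), together with the mRNAs of mitochondrial DNA. This gave 107 of the 54752 gene identifiers in the count tables, 94 in the nucleus and 13 in the mitochondrial genome. Complexes I, III, IV and V are built from products of both genomes, and the nuclear subunits are made in the cytosol and imported, whereas complex II is wholly nuclear. Neurons depend on this pathway for much of their ATP, while dividing progenitors are known to draw more on glycolysis.

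The study asked how chronic unpredictable mild stress (CUMS) of the pregnant dam, an irregular series of mild stressors given from early pregnancy until the day before collection, alters the transcriptome of the fetal brain. The 8 brains used here were wild type C57BL/6 (the substrain C57BL/6Slac in the study's methods) at E15.5, 1 library per brain. The 4 brains of the control group are called F36, F37 (both female), M30 and M31 (both male), and the 4 of the stress group F34, F35 (both female), M28 and M29 (both male). Per the study's sample sheet each group is a single litter. Litter and condition therefore cannot be told apart, and p-values measure the spread between littermates. Messenger RNA was captured by its poly(A) tail and read pairs were counted on exons, with no use of strand stated. Library totals were between 25320109 and 29105710 counts, and no brain stood apart in total. CPM is a count scaled in the usual way to its library's total, with totals adjusted by edgeR's TMM method, a log2 fold change (Log2FC) is stress vs. control from edgeR's quasi-likelihood test with sex as covariate, SE is its standard error. A gene is called at a Benjamini-Hochberg adjusted p under 0.05 over the 17865 genes tested.

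The tissue label was met by the markers. The summed level of 11 neuron markers was between 7936 and 8383 CPM in the 8 brains, and that of 8 muscle markers between 3.28 and 4.54 CPM. In bulk tissue, fewer cells of a type and less RNA per cell cannot be told apart. Of the 11 neuron markers 5 were lower and 0 higher in stress, with sums of 8154 to 8383 CPM in control and 7936 to 8294 CPM in stress. Of 10 radial glia markers 6 were higher (sums 1837 to 1959 and 1909 to 2078 CPM), with the largest rises in Top2a and Mki67 (Log2FC 0.24 and 0.21). The other 4 (Hes1, Hes5, Fabp7 and Slc1a3) lay below 0 and were not called. Of 5 intermediate progenitor markers 4 were higher (sums 310.7 to 336.9 and 344 to 383.7 CPM). Of the vascular markers 1 of 6 was higher and 2 were lower, of the blood markers 2 of 8 were higher and 1 was lower, and 0 of 6 microglia markers were called. Over all genes tested, 6.49% were called higher and 7.27% lower. The part of these differences in the values below was not tested.

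Most members were expressed well above the filter on low counts (a minimum count of 10). It kept 102 of the 107, all 13 mitochondrial mRNAs and 89 of the 94 nuclear genes. The 5 that did not pass were Cox7b2, Cox6a2, Cox8b, Cox8c and a second Atp5o entry whose exons lie wholly within other genes, none with more than 3 counts in any brain. Several of these are known from muscle or testis. Cox8b and the second Atp5o entry had 0 counts in every brain, which allows a level of up to 3 counts per library.

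The mitochondrial mRNAs took more of each library than all nuclear members together. Their 13 genes held 1.94% ± 0.046 (SD, n = 4) of the counts in control and 1.99% ± 0.081 (SD, n = 4) in stress. In control brains the share was 1.92% in F36, 1.98% in F37, 1.96% in M30 and 1.88% in M31, and in stressed brains 1.93% in F34, 1.98% in F35, 1.94% in M28 and 2.11% in M29. The groups overlapped, with stress M29 above the other 7 brains. The 94 nuclear genes held 0.797% ± 0.018 (SD, n = 4) in control and 0.787% ± 0.021 (SD, n = 4) in stress, so that the mitochondrial genes had 2.43 ± 0.066 and 2.52 ± 0.074 counts for each nuclear count (SD, n = 4 each). Counts of mt-Co2, mt-Co3, mt-Atp6, mt-Nd3 and mt-Nd4l are uncertain because of shared sequence, and those of mt-Nd4 and mt-Co1 in part (described below). These shares and ratios therefore hold for counted reads and may leave out part of the mitochondrial mRNA.

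Levels of different genes were compared per length, as CPM per kilobase of exon in the control brains (mean ± SD, n = 4). The length is that of all annotated exons of a gene, which can far exceed 1 transcript. For Atp5g3 it is 2181 bases, while the longest coding transcript has 723. The order of the nuclear members below holds for this length only and could change with another. Among the nuclear members Cox8a, a small subunit of complex IV, had the highest level at 264.2 ± 14.8. It was followed by Cox6a1 at 219.7 ± 8.91, Atp5b, the catalytic beta subunit of ATP synthase, at 218.3 ± 4.13 and Cox6b1 at 215.3 ± 5.47, which lay within 1 SD of each other. Sdha, the flavoprotein that oxidizes succinate in complex II, was at 46.6 ± 0.49. Among the mitochondrial mRNAs the order was mt-Co1 (4089 ± 84.4), mt-Cytb (3741 ± 97.1), mt-Nd1 (3016 ± 102) and mt-Atp8 (2615 ± 173). These are the catalytic subunit of complex IV, cytochrome b of complex III, a membrane subunit of complex I and a small membrane subunit of ATP synthase. mt-Nd2 (1613 ± 68.0) and mt-Nd4 (1362 ± 31.1) came next, and mt-Nd5 (761.3 ± 45.5) and mt-Nd6 (663.1 ± 37.9) followed. The other 5 were far lower, at 77.2 ± 5.20 for mt-Atp6, 53.4 ± 8.90 for mt-Nd3, 7.43 ± 0.39 for mt-Nd4l, 2.92 ± 0.21 for mt-Co3 and 1.83 ± 0.18 for mt-Co2.

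All mitochondrial mRNAs are cut from long transcripts of 1 small circular genome, so the range of these levels was set beside their sequences. Nuclear copies of mitochondrial DNA exist in the mouse genome, and a read that fits both places equally well cannot be assigned to one. Each transcript was divided into overlapping windows of 100 bases, the length of 1 read, and the windows found letter for letter in a transcript of another gene were counted. The share was 97.6% for mt-Nd3, 98.5% for mt-Nd4l, 99.5% for mt-Co2 and for mt-Atp6 and 99.9% for mt-Co3, the same 5 mRNAs that had the lowest levels. It was 60.8% for mt-Nd4, 30.8% for mt-Co1, 3.2% for mt-Nd2 and 0 for mt-Nd1, mt-Nd5, mt-Nd6, mt-Cytb and mt-Atp8. Only annotated transcripts were searched, so a copy elsewhere in the nuclear genome would not be counted, also for the mRNAs at 0.

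The copies lie side by side on the minus strand of chromosome 1 (mm10), where the annotation has pseudogenes named Gm28661 (for mt-Co2), Gm10925 (mt-Atp6), Gm28437 (mt-Co3), Gm28438 (mt-Nd3), Gm10222 (mt-Nd4l) and Gm28439 (the first part of mt-Nd4). The aligned bases of these 6 were 100% identical to the mitochondrial gene. The end of mt-Co1 has its copy in Gm29216, with 1 difference in 483 aligned bases (99.79% identity). The sequences of 2 pairs are shown, since reads from them bear on how the counts below can be read: the first 60 bases of mt-Co3 (mitochondrial positions 8607 to 9390) beside Gm28437 (chr1:24613189-24613971), and bases 1063 to 1122 of mt-Co1 beside Gm29216 (chr1:24615706-24616197), with the differing base in capitals (A1066T, counted from the first base of mt-Co1).
mt-Co3: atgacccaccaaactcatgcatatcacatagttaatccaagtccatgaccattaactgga
Gm28437: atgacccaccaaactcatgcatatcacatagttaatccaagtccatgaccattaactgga
mt-Co1: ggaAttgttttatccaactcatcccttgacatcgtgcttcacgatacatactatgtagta
Gm29216: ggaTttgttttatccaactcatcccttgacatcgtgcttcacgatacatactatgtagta
The mt-Co3 pair holds no letter that could tell the 2 places apart, and in the mt-Co1 pair only reads that cover the one base can. The copies themselves had few counts, between 8 and 15 for Gm28437 and between 6 and 29 for Gm29216. mt-Co3 had between 33 and 69 counts per brain and mt-Co1 between 162583 and 193173. The plot of level against shared windows shows the separation. Counts of mt-Co2, mt-Co3, mt-Atp6, mt-Nd3 and mt-Nd4l are therefore uncertain here. Those of mt-Nd4 (60.8% of windows shared) and mt-Co1 (30.8%) are uncertain in part, and with them the place of mt-Nd4 in the order of levels. The part of the shared sequence in the levels of these mRNAs was not tested.

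**Figure D1:**
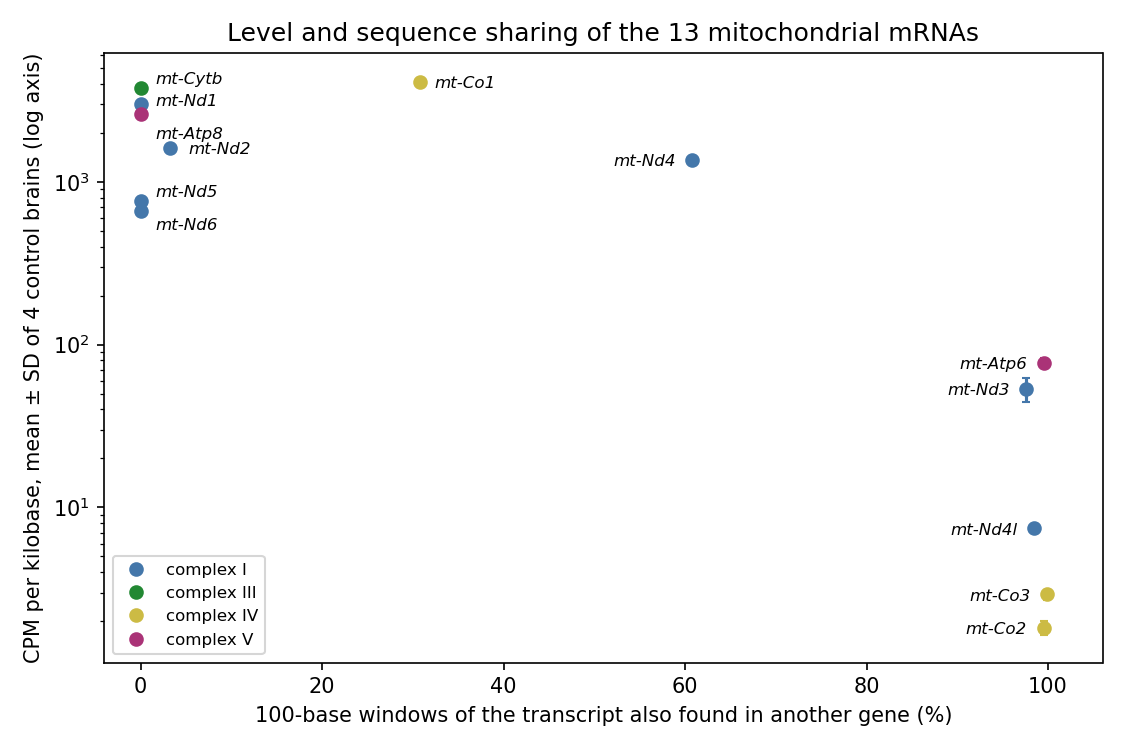
Level of each of the 13 mitochondrial mRNAs (vertical log axis, CPM per kilobase, mean and SD of 4 control brains) against the percentage of its 100-base windows that another gene also holds, coloured by complex. The 5 mRNAs with over 95% of windows shared lie at 77.2 CPM per kilobase or less, and the other 8 at 663.1 or more.

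Few members differed between stressed and control brains. Of the 89 nuclear members tested, 2 were higher in stress, the subunit c gene Atp5g2 and the complex I assembly factor Ndufaf3, and 2 were lower, Ndufb2 of complex I and Cox8a of complex IV. Of all genes tested 6.49% were called higher and 7.27% lower, 13.8% in all, against 4 of 89 nuclear members. For 74 of the 89, the 95% confidence interval of the Log2FC lay between -0.2 and 0.2. The median Log2FC was -0.03 over the nuclear members (range -0.15 to 0.17) and 0.00 over all genes tested. Of the nuclear members 59 lay below 0 and 30 above, while all genes were divided into 8834 and 9031. The groups did not overlap in CPM for 4 of the 89, and for 16.4% of all genes tested.

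**Figure D2:**
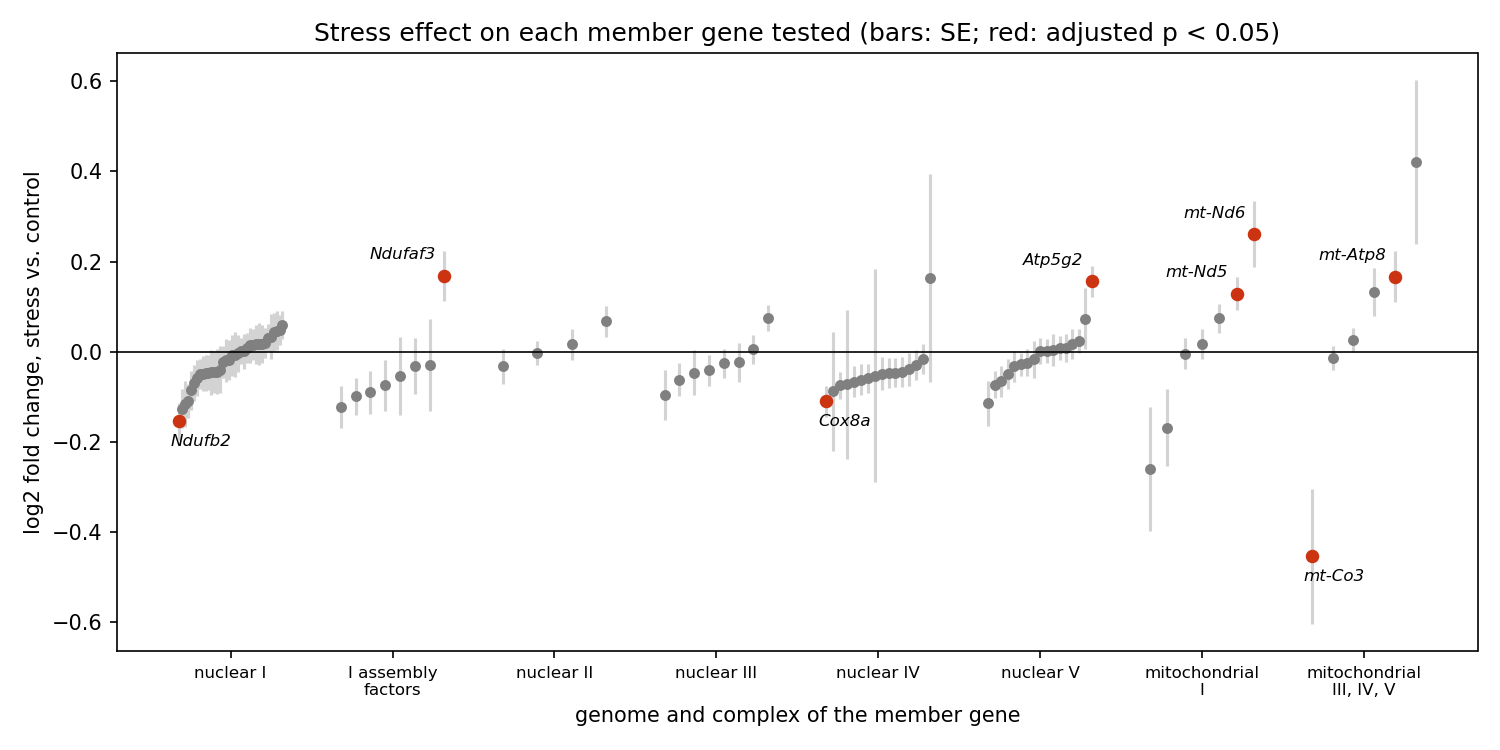
Log2FC of every member tested, stress vs. control (vertical axis, bars are SE), sorted within each complex and genome, with called genes in red and named. The 8 called members lie between -0.45 (mt-Co3) and 0.26 (mt-Nd6), and most nuclear members lie close to 0.

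Complex by complex, the nuclear subunits gave the same picture. In complex I, the NADH dehydrogenase, 36 subunits were tested, 15 lay above 0 and 21 below, with a median Log2FC of -0.01, and only Ndufb2 was called. In complex II 0 of 4 were called (median 0.01). In complex III, the cytochrome bc1 complex, 0 of 8 were called (median -0.03). In complex IV, cytochrome c oxidase, 14 of 15 lay below 0 (median -0.05) and Cox8a was called. In complex V 8 of 16 lay above 0 (median -0.01) and Atp5g2 was called. In complexes II and III, 1 of the 12 members had an unadjusted p under 0.05, against 26.9% of all genes tested. It was Uqcrc2 of complex III, with a Log2FC of 0.08 (SE 0.03, adjusted p = 0.0867 by edgeR's quasi-likelihood test with Benjamini-Hochberg adjustment).

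The 17 core subunits, which hold the redox centres, the catalytic sites or the large matrix parts (such as Ndufs1, Sdha, Uqcrfs1, Atp5a1 and Atp5b), and the 62 other subunits were also described apart. Of the core subunits 12 lay above 0 and 5 below, with a median Log2FC of 0.01, and 0 were called. Of the others, mostly small accessory proteins, 16 lay above 0 and 46 below, with a median of -0.04, and 3 were called. Of the 8 complex I assembly factors of the Nduf family, 7 lay below 0 and the remaining one, Ndufaf3, was called higher.

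Subunit c forms the proton-driven ring of ATP synthase and is encoded by 3 nuclear genes, Atp5g1, Atp5g2 and Atp5g3, which differ in the import peptide and give the same mature protein. Atp5g2 (chromosome 15, 102662864 to 102672352) had 80.8 CPM in F36, 79.1 in F37, 77.6 in M30 and 76.6 in M31 of the control group. In stress it had 85.8 CPM in F34, 84.9 in F35, 86.1 in M28 and 93.1 in M29, so the groups did not overlap and M29 was highest. Its Log2FC was 0.16 (SE 0.03, edgeR adjusted p = 0.0026), and it was called with each of the 8 brains left out and by DESeq2. Fitted on 2 brains against 2, it was called in the males and not in the females (Log2FC 0.09, edgeR adjusted p = 0.285).

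Atp5g1 and Atp5g3 were not called. Atp5g1 had 83.1, 81.8, 77.1 and 80.1 CPM in control F36, F37, M30 and M31 and 77.4, 77.8, 75.3 and 75.8 CPM in stress F34, F35, M28 and M29. Its groups overlapped through control M30, and its Log2FC was -0.07 (SE 0.03, edgeR adjusted p = 0.118). Atp5g3 had 207.5, 202.2, 207.7 and 197.2 CPM in the control brains and 190.2, 197.9, 202.7 and 210.4 CPM in the stressed brains in the same order, with overlapping groups and a Log2FC of -0.02 (SE 0.03, edgeR adjusted p = 0.663). As a share of the CPM of the 3 genes, Atp5g2 took between 21.4% and 21.8% in the control brains and between 23.5% and 24.5% in the stressed brains. Per length, Atp5g3 had the highest control level (93.4 ± 2.29 CPM per kilobase), then Atp5g2 (46.9 ± 1.09) and Atp5g1 (16.4 ± 0.53, SD, n = 4 each). In CPM, Atp5g1 and Atp5g2 had like values in control, so their order per length rests on the annotated exon length.

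**Figure D3:**
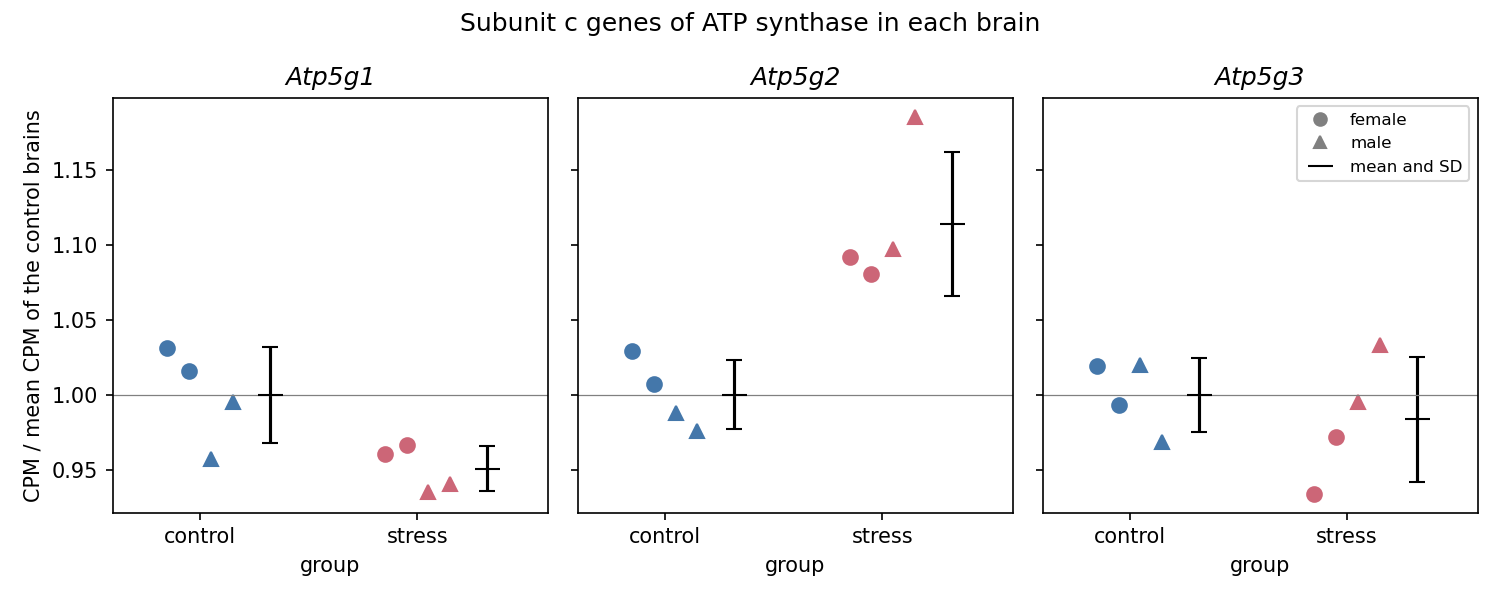
CPM of Atp5g1, Atp5g2 and Atp5g3 in each brain, divided by the mean of the 4 control brains (vertical axis, not starting at 0), with females as circles, males as triangles, and the mean and SD of each group in black. In the middle panel all 4 stressed brains lie above all 4 control brains, while the groups overlap in the other panels.

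The promoters of the 3 genes are printed because they are transcribed apart while their product is the same. Each is the window from 250 bases before to 50 bases after the start of the gene in RefSeq (GRCm38.p6, the assembly behind mm10), read 5′ to 3′ on the minus strand. For Atp5g2 the gene of the count tables begins further upstream. Capitals mark matches to 3 motifs of factors known to act on respiratory genes, the NRF1 core GCGCATGC, the ETS site CCGGAAGT bound by GABP and the YY1 site AAGATGGCG, searched on both strands. Cox8a, called lower on groups that overlapped (below), is shown with them.
Atp5g1 (chr11:96075582-96075881): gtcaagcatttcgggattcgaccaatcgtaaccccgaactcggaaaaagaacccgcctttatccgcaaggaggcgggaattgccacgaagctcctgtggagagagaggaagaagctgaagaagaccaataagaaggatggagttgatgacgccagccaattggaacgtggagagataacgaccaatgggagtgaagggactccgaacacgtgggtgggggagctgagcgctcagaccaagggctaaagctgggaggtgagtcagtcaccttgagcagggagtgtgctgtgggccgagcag
Atp5g2 (chr15:102670998-102671297): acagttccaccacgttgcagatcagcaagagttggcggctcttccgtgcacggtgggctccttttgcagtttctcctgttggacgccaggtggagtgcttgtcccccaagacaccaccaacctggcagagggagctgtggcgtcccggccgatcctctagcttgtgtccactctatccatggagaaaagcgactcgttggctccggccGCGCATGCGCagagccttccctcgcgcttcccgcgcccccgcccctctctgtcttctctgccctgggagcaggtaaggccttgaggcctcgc
Atp5g3 (chr2:73911277-73911576): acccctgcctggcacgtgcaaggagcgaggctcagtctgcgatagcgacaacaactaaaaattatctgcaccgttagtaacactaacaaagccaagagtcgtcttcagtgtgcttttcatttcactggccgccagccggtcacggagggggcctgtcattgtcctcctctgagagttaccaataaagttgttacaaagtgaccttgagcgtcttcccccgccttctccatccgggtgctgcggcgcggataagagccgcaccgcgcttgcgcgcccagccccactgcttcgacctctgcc
Cox8a (chr19:7217567-7217866): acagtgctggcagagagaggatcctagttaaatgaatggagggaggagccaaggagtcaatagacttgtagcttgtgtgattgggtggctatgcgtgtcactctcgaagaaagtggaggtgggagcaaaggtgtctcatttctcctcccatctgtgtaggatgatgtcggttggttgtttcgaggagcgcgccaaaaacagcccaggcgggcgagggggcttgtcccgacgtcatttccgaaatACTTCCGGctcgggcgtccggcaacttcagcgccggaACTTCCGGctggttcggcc
The Atp5g2 window holds the NRF1 core once on each strand in 1 palindromic stretch, where the 2 matches overlap. The windows of Atp5g1 and Atp5g3 hold none of the 3 motifs, and that of Cox8a holds 2 ETS sites. No match of one motif overlapped a match of another in these windows. The windows of the other called nuclear members, Ndufaf3 and Ndufb2, hold none of the motifs. Atp5k and Cox6a1, among others, hold the same NRF1 stretch as Atp5g2 and were not called over all brains. A link between motif and direction was not tested. Of the 94 nuclear members 76 matched a RefSeq promoter, and the NRF1 core was in 12 of them (15.8%) against 2.8% of all 27025 promoters of this length. The YY1 site was in 7 (9.2% against 1.49%) and the ETS site in 5 (6.6% against 4.0%). These counts take the first listed promoter of each gene, in members and in all genes alike. The 27025 promoters were not limited to genes expressed in these brains. Atp5j holds a YY1 site in its second listed promoter, which was not counted. These are matches of letters and not sites of binding.

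The other called nuclear members had differences of like size. Ndufaf3, which takes part in the assembly of the complex I matrix arm (chromosome 9, 108565537 to 108567434), had 16.6, 17.8, 15.45 and 16.5 CPM in control F36, F37, M30 and M31 and 18.5, 18.2, 18.9 and 18.9 CPM in stress F34, F35, M28 and M29, without overlap. Its Log2FC was 0.17 (SE 0.05, edgeR adjusted p = 0.041). It was called with only 2 of the 8 brains left out in turn, losing its call without control F36, M30 or M31 or stress F34, M28 or M29, and DESeq2 did not call it (adjusted p = 0.135).

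Ndufb2, an accessory subunit of the membrane arm of complex I (chromosome 6, 39592574 to 39603382), had 36.3, 35.96, 33.9 and 35.6 CPM in the control brains and 32.1, 31.3, 31.6 and 32.4 CPM in the stressed brains in the same order. All 4 stressed brains lay below all control brains. Its Log2FC was -0.15 (SE 0.04, edgeR adjusted p = 0.0115), and it was called with each brain left out and by DESeq2. On 2 brains against 2, it was -0.19 in the females and -0.12 in the males, called in neither.

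Cox8a (chromosome 19, 7215158 to 7217616) had 155.5, 143.1, 140.7 and 136.7 CPM in the control brains and 128.7, 133.5, 133.3 and 138.1 CPM in the stressed brains. The groups overlapped, stress M29 lying above control M31. Its Log2FC was -0.11 (SE 0.03, edgeR adjusted p = 0.0328) over all brains, -0.07 without control F36 (edgeR adjusted p = 0.174) and -0.08 without stress F34 (adjusted p = 0.14), and its call was also lost without control F37 or M30 or stress F35 or M28. Ndufa6, an accessory subunit of complex I, lay just outside the threshold (Log2FC -0.13, SE 0.04, edgeR adjusted p = 0.0503).

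Complex IV has tissue variants of several subunits, and the common forms dominated. Cox4i1, the common form, had between 5557 and 6691 counts per brain and the lung form Cox4i2 between 17 and 33. Cox6b1 had between 3591 and 4512 counts and Cox6b2, known from testis, between 42 and 64. Cox7a2 had between 2412 and 2864 counts and Cox7a1, known from heart and skeletal muscle, between 12 and 32. Cox6a2, also a muscle form, had at most 2 counts against 3473 to 4445 for Cox6a1. Ndufa4, a complex IV subunit despite its name, had between 3041 and 3603 counts and its relative Ndufa4l2, known from hypoxia, between 60 and 92.

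None of these variants was called between the groups. The Log2FC was -0.06 (SE 0.03) for Cox4i1 and 0.16 (SE 0.23) for Cox4i2, so the interval for the rare form, from -0.31 to 0.64, was wide. It was -0.07 for Cox6a1, -0.05 for Cox6b1 and -0.07 for Cox6b2. It was -0.06 for Cox7a2, -0.05 for Cox7a1 and -0.07 for Cox7a2l, a relative that helps join complexes III and IV. It was -0.05 for Ndufa4 and -0.09 for Ndufa4l2. For the 9 without an interval given here, the adjusted p of edgeR's test was 0.101 or more.

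Of the 13 mitochondrial mRNAs, 3 were higher in stress (mt-Nd5, mt-Nd6 and mt-Atp8) and 1 was lower (mt-Co3), against 6.49% and 7.27% of all genes tested. The median Log2FC of the 13 was 0.03, and 8 lay above 0 and 5 below. The 3 most abundant mRNAs per length, mt-Co1, mt-Cytb and mt-Nd1, were not called, with Log2FC of 0.03 (SE 0.03), -0.01 (SE 0.03) and 0.07 (SE 0.03, edgeR adjusted p = 0.125). mt-Co1 had 6270, 6453, 6387 and 6158 CPM in control F36, F37, M30 and M31 and 6406, 6423, 6244 and 6673 CPM in stress F34, F35, M28 and M29. mt-Cytb had 4340, 4327, 4338 and 4113 CPM and 4171, 4194, 4175 and 4424 CPM in the same order. In both, the groups overlapped and M29 was the highest brain. mt-Nd1 had 2887, 3020, 2847 and 2790 CPM in control and 2906, 2932, 3075 and 3249 CPM in stress, again with overlap and with M29 highest.

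mt-Nd5 and mt-Nd6 encode membrane subunits of complex I and lie next to each other on opposite strands of the mitochondrial DNA. mt-Nd5 had 1332, 1409, 1497 and 1316 CPM in control F36, F37, M30 and M31 and 1465, 1509, 1451 and 1650 CPM in stress F34, F35, M28 and M29 (Log2FC 0.13, SE 0.04, edgeR adjusted p = 0.018). mt-Nd6 had 341.9, 333.9, 372.4 and 328.3 CPM and 355.3, 435.7, 342.6 and 516.5 CPM in the same order (Log2FC 0.26, SE 0.07, edgeR adjusted p = 0.0171). Both overlapped between the groups, with M29 far above the other brains for mt-Nd6. Of the mt-Nd6 exon 2.7% is shared with mt-Nd5, and since the counting is not stated to use strand, its RNA and RNA of the opposite strand cannot be told apart.

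mt-Atp8, which is 204 bases long and overlaps mt-Atp6 over 21.1% of them, had 493.1, 576.4, 521.1 and 543.2 CPM in control and 522.9, 618.2, 552.7 and 704.5 CPM in stress, again with overlap and with M29 highest (Log2FC 0.17, SE 0.06, edgeR adjusted p = 0.0469). Its neighbour mt-Atp6, whose sequence is shared, had a Log2FC of 0.13 (SE 0.05, edgeR adjusted p = 0.0996). mt-Co3 had 69, 61, 60 and 66 counts in control F36, F37, M30 and M31 and 52, 33, 47 and 53 in stress F34, F35, M28 and M29 (Log2FC -0.45, SE 0.15, edgeR adjusted p = 0.0438). All stressed brains lay below the control brains, on counts of a gene that shares nearly all its windows.

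The other mitochondrial mRNAs were not called. mt-Nd2 and mt-Nd4, membrane subunits of complex I, had Log2FC of 0.00 (SE 0.03) and 0.02 (SE 0.03). mt-Nd4 shares 60.8% of its windows. Of those with over 95% shared, mt-Co2, which takes electrons from cytochrome c, had a Log2FC of 0.42 on 31 to 61 counts (SE 0.18, edgeR adjusted p = 0.133). mt-Nd3 had -0.17 (SE 0.09) and mt-Nd4l -0.26 (SE 0.14), both small subunits of complex I. The 6 mRNAs with under 5% of windows shared had a median Log2FC of 0.10 with 3 called higher, and the 5 with over 95% shared had a median of -0.17 with 1 called lower.

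These 4 calls were less stable than those of Atp5g2 and Ndufb2. DESeq2's Wald test called 0 of the 13, with adjusted p of 0.468 for mt-Atp8, 0.359 for mt-Nd6, 0.208 for mt-Nd5 and 0.167 for mt-Co3. edgeR called 0 of the 13 without stress M29 and 0 without control M31, where mt-Nd6 had a Log2FC of 0.12 and 0.22. It called 1 without control F36 and 1 without stress F35, and 1 without the sex covariate, which was mt-Co3.

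**Figure D4:**
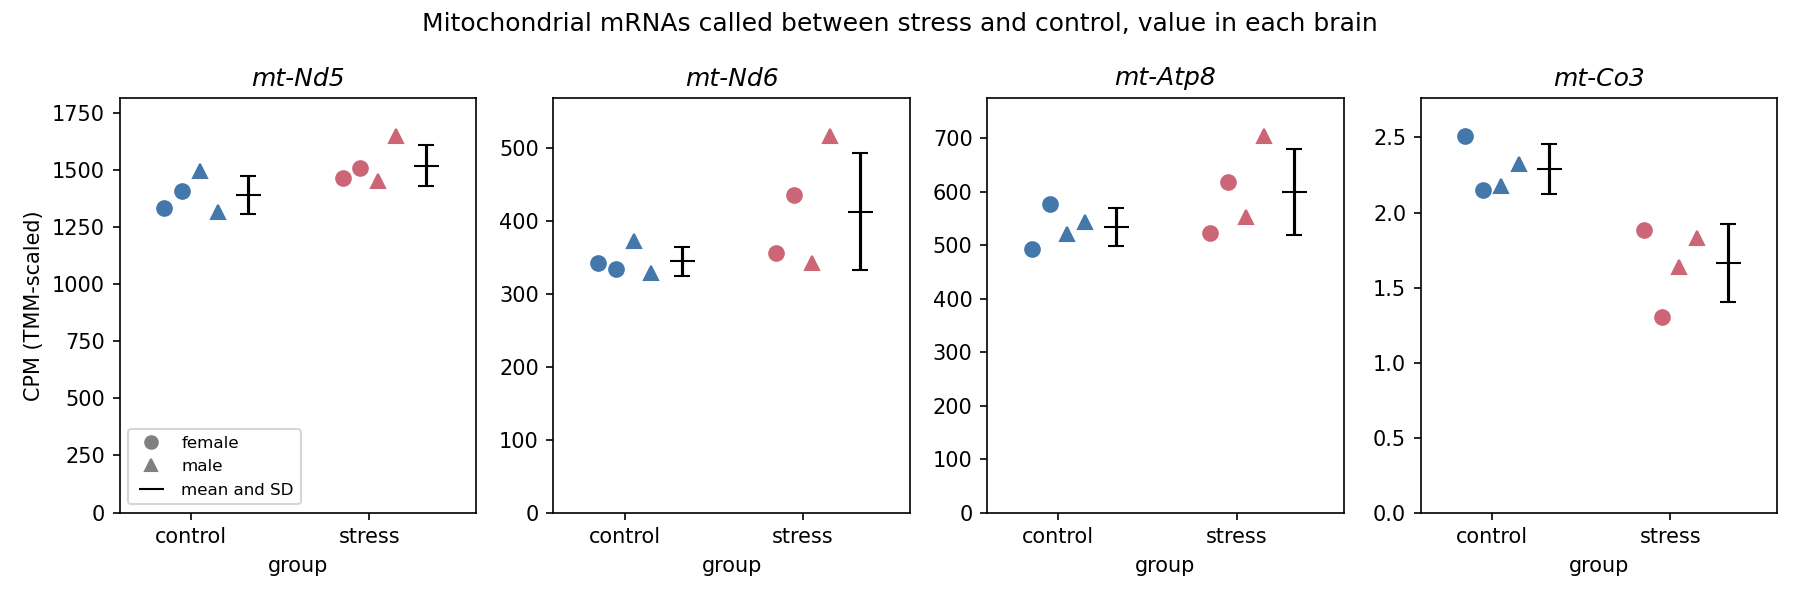
CPM of the 4 called mitochondrial mRNAs in each brain (vertical axes from 0, a separate scale for each gene), with females as circles, males as triangles, and the mean and SD of each group in black. Stress M29 is the highest brain for mt-Nd5, mt-Nd6 and mt-Atp8, and for mt-Co3 the 4 stressed brains (33 to 53 counts) lie below the 4 control brains (60 to 69 counts).

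No member was called between females and males over both groups by edgeR (0 of 102 called, with 2 at an unadjusted p under 0.05, and 0 called by DESeq2). Of all genes tested 0.0896% were called and 5.91% had an unadjusted p under 0.05. The fit averages the difference between the sexes over control and stress. The summed share of the nuclear members was higher in females than in males in control and lower in stress (below). Differences of this kind can cancel in the fit, and the sexes were not tested within a group. Ndufa1, Ndufb11 and Cox7b lie on the X chromosome, and their female vs. male Log2FC were -0.06, -0.03 and -0.04. Their Log2FC between stress and control were -0.12, -0.05 and -0.03, none called.

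The median difference of the nuclear members between stress and control had opposite signs in the sexes, while the test of the sexes' difference called none (below). In a model with a sex by stress term, the median Log2FC of the 89 nuclear members was -0.11 in the females and 0.04 in the males, and 0.00 in both sexes over all genes. In females 82 of the 89 lay below 0, in males 13. The nuclear members took 0.82% and 0.803% of the counts in control females F36 and F37 and 0.766% and 0.774% in stressed females F34 and F35. In males they took 0.788% and 0.778% in control M30 and M31 and 0.80% and 0.81% in stressed M28 and M29. Both stressed females thus lay below both control females, and both stressed males above both control males. All 5 complexes had a negative median in females (from -0.13 in complex IV to -0.04 in complex II) and a positive one in males (from 0.03 in complex IV to 0.06 in complexes II and III). With an offset for gene length the male median of complex IV lay just below 0 (-8e-04), with 8 of its 16 nuclear members below 0, and the other 9 medians kept their sign.

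The test of this difference called 0 of the 102 members by edgeR's quasi-likelihood test and 0 by DESeq2, and 0.0056% of all genes tested. At an unadjusted p under 0.05 there were 38 members by edgeR and 27 by DESeq2, all 38 with a lower Log2FC in the females, against 6.31% of all genes tested. The smallest p was that of Ndufa5, an accessory subunit of complex I, with a Log2FC of -0.21 in females and 0.13 in males (difference -0.33, SE 0.08, edgeR adjusted p = 0.446). Next came Ndufs4, a subunit whose loss causes a mitochondrial disease of the brain, with -0.12 and 0.15 (difference -0.27, SE 0.07, edgeR adjusted p = 0.446). These are genes that move together within a library, so that their number is not a number of separate observations, and each sex rests on 2 brains against 2.

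Fitted on the 4 females alone, edgeR called 9 nuclear members lower and 0 higher. Of all 17969 genes tested there, 407 were called lower and 295 higher (3.91% in all). The 9 were Atp5k, Cox4i1, Cox5b, Cox8a, Ndufa1, Ndufa5, Ndufa6, Ndufs5 and Uqcr10. In the females mt-Nd6 was also called higher. Fitted on the 4 males alone, edgeR called Atp5g2, Ndufaf3, Ndufs4 and Sdhc higher and 0 nuclear members lower, with mt-Nd1, mt-Nd6 and mt-Atp8 also higher. Of all 18057 genes tested there, 869 were called lower and 664 higher (8.49% in all). In both sexes the Log2FC of mt-Nd6 was above 0 (0.23 in females and 0.29 in males), and the mitochondrial mRNAs had medians of -0.02 and 0.06.

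Gene length moved with this result. Nuclear members under 1000 bases had a median difference of -0.22 between the sexes' stress effects (21 genes) and longer ones -0.12 (68 genes), while all genes tested under 1000 bases had -0.06. With an offset for length in each library, the number of members at an unadjusted p under 0.05 fell to 23, and the medians of the nuclear members were -0.08 in females and 0.02 in males. Without control F36 the number was 22.

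**Figure D5:**
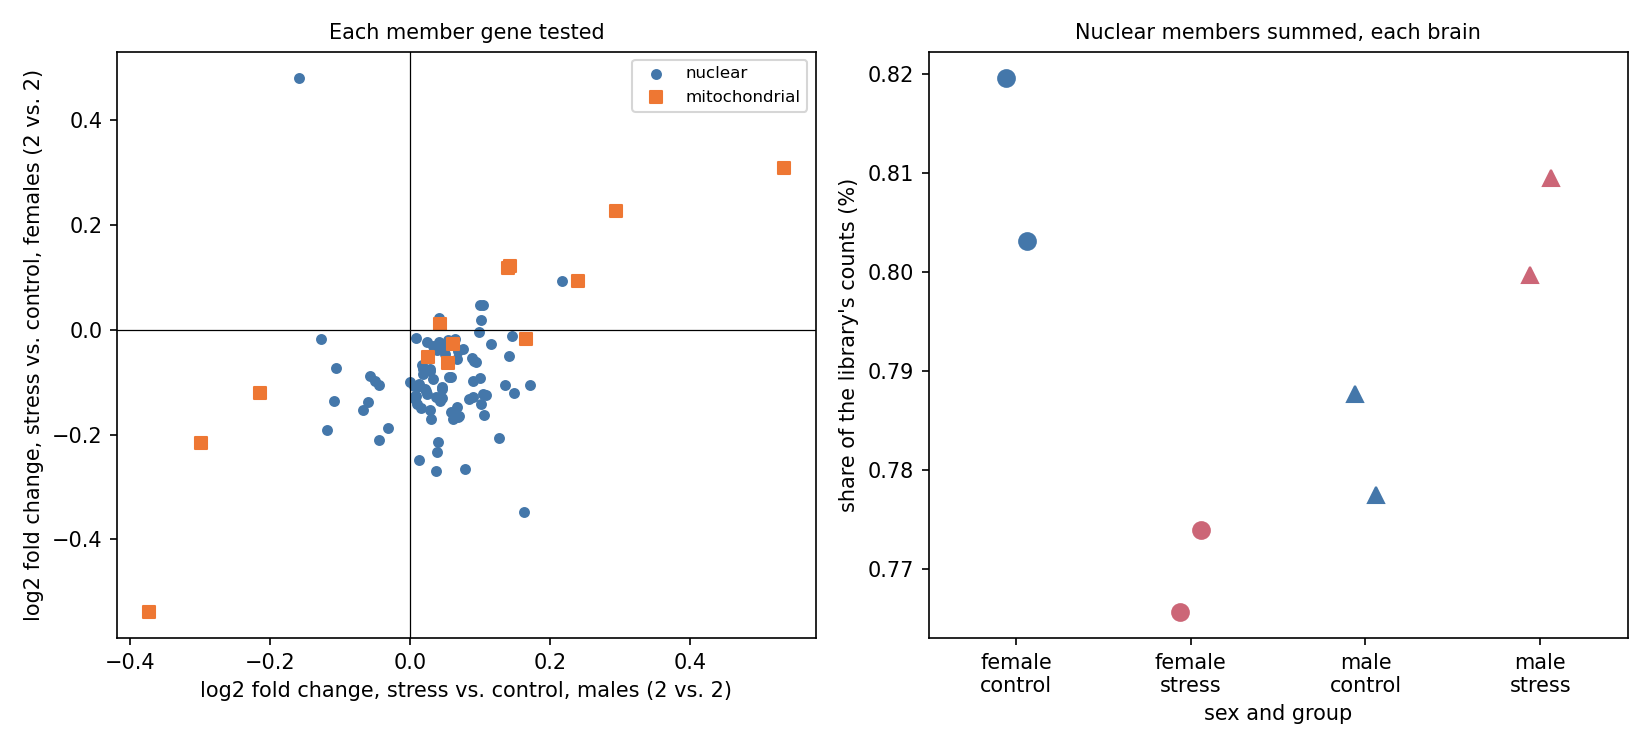
Left, Log2FC of each member tested in females (vertical axis) against males (horizontal axis), 2 stressed vs. 2 control brains each, with nuclear members as blue circles and mitochondrial mRNAs as orange squares. Right, share of each library's counts in the 94 nuclear members (axis not starting at 0), control in blue and stress in red, where the stressed females lie at 0.766% and 0.774% below their controls and the stressed males at 0.80% and 0.81% above theirs.

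Genes that build or feed the complexes were counted by list, beside the 13.8% of all genes tested that were called in either direction. Of the assembly factors, 1 of 8 for complex I (Nubpl, which carries iron-sulphur clusters, Log2FC 0.26, SE 0.08), 1 of 4 for complex II (Sdhaf1, Log2FC 0.29, SE 0.10), 0 of 6 for complex III, 0 of 20 tested for complex IV and 0 of 3 for complex V were called, the 2 calls being higher in stress. Both cytochrome c1 and cytochrome c lay near 0, with 0 of 2 called. Of 10 genes of coenzyme Q synthesis, the electron carrier of the membrane, Coq7 was called higher (18.1 ± 0.45 CPM in control and 21.1 ± 0.71 in stress, SD, n = 4 each). Its Log2FC was 0.22 (SE 0.05, edgeR adjusted p = 0.00345), with no overlap and with a call whichever brain was left out.

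None of the 16 genes of the citric acid cycle and pyruvate dehydrogenase was called, of which 3 had an unadjusted p under 0.05 by edgeR, a level that 26.9% of all genes tested reached. The same held for 9 genes of mitochondrial DNA replication and transcription (2 at that level), 8 of mitochondrial RNA processing (1) and 8 transcriptional regulators such as Ppargc1a, Nrf1 and Gabpa (4). Of 77 mitochondrial ribosomal protein genes tested, Mrpl13 and Mrpl2 were called higher (Log2FC 0.15 and 0.14) and 0 lower.

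The ribosomal RNAs of mitochondrial DNA went the other way from mt-Nd5, mt-Nd6 and mt-Atp8. They are transcribed from the same strand as most of the mRNAs, and they carry only short poly(A) tails, so that the capture takes up an unknown part of them. mt-Rnr1, the RNA of the small ribosomal subunit, fell from 675.5 ± 19.6 to 599.7 ± 33.97 CPM (SD, n = 4 each), with no overlap, a Log2FC of -0.17 (SE 0.03) and an edgeR adjusted p = 0.000134. mt-Rnr2, the RNA of the large subunit, fell from 1465 ± 57.4 to 1356 ± 72.9 CPM with overlapping groups (Log2FC -0.11, SE 0.03, edgeR adjusted p = 0.00559). Both were called with each brain left out and by DESeq2, and mt-Rnr2 was not called without the sex covariate (edgeR adjusted p = 0.0661) or in the males alone. The rRNAs had between 0.105 and 0.115 counts per count of mitochondrial mRNA in control and 0.096, 0.0957, 0.107 and 0.095 in stress F34, F35, M28 and M29.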

How the data were processed

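Whole-brain mRNA of 8 fetal mice was analysed, 4 control and 4 stress, grouped by the labels. The authors used TopHat2 2.1.1 for alignment to mm10 and featureCounts 1.6.3 with GENCODE vM20 for counting pairs, and the deposited values are raw counts per gene. TopHat2 was set to keep reads with several places up to a limit, and the options given for featureCounts set nothing for such reads, for strand or for overlapping genes. Identifiers were matched here to GENCODE vM21 (29 of the 54752 identifiers without a match).

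In R 4.3.3, edgeR 4.0.16 kept 17865 genes (filterByExpr, minimum count 10), normalized them by TMM and applied glmQLFit and glmQLFTest with sex and condition. The SE is the Log2FC divided by the root of F. The study's model also held batch, which is not named for these libraries. Total counts were 25320109 to 29105710 per library. In simulated data of 17865 genes, 26% of 200 planted genes with a Log2FC of 0.15 were recovered (60% of the 75 at 30 CPM or more, 10 false calls), and 57.5% at 0.3 (100%, 9 false calls). Only these 200 genes differed there, against 2458 called in the data. Since the adjusted p depends on that number, these shares do not give the recovery in the data. Intervals cover the spread between littermates.

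Alternatives were DESeq2 1.42.0, RLE and upper-quartile factors, mitochondrial genes left out of the totals, length offsets, no filter, no sex covariate, each sex alone and each brain left out. Members, lists and motifs were chosen with earlier results of these data known. Called members, paralogue sets and X-linked members are named, with values per brain for called nuclear and mitochondrial members, the subunit c genes and the most abundant mitochondrial mRNA per length of complexes I, III, IV and V. Coq7, the rRNAs, Uqcrc2, Ndufa6, Ndufa5, Ndufs4 and the members called within 1 sex were named after their values were seen.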

Additional observations from a re-analysis of the deposited data

Results flagged for a closer look

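Of 36 groups of 4 brains looked at (the called members, the other subunit c genes, the most abundant mitochondrial mRNAs and 5 sums or ratios), 4 held a brain far from the other 3, where the gap to the nearest brain, as a share of the group's range, exceeded Dixon's 95% critical value. Chance gives about 1 in 20. Stress M29 stood above the other stressed brains for Atp5g2 (93.1 CPM against 84.9 to 86.1, ratio 0.844) and for mt-Cytb (4424 CPM against 4171 to 4194, ratio 0.909). Control M31 stood below the other controls for mt-Cytb (4113 CPM against 4327 to 4340, ratio 0.943). Stress M28 stood above the other stressed brains in counts of mitochondrial rRNA per count of mitochondrial mRNA (0.107 against 0.095 to 0.096, ratio 0.912).

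The share of counts in the nuclear members moved in opposite directions in the sexes. Stress minus control was -0.0415 percentage points in the females and 0.022 in the males, with both stressed brains of a sex on the same side of both controls. The difference in the share itself was not tested. For 23 of the 89 nuclear members tested (25.8%) both stressed females lay below and both stressed males above their controls, and for 0 the reverse. Among all genes tested the 2 patterns took 2.62% and 2.07%.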

How the results depend on the processing

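Of the values that answer a comparison, 101 alternatives stayed within 1.5 times the reported count, or within 1 SD between brains for a median or share, and 19 moved. For single genes 368 kept their direction and their side of the threshold, 53 lost their call, 3 gained one and 18 changed sign. Over all genes, DESeq2 called 748 higher and 911 lower, against 1160 and 1298 by edgeR, the females alone 295 and 407, and the males alone 664 and 869. The 4 nuclear calls became 7 with length offsets and 9 in females alone, and 2 to 5 with a brain left out (2 without control F36 or M30). The 4 mitochondrial calls became 0 with DESeq2, 1 without the sex covariate and 1 in females alone, and 0 to 5 with a brain left out. The nuclear median was -0.105 in females alone and 0.0425 in males alone, and the mitochondrial median -0.0171 and 0.0602. The interaction, with 0 calls, had 1 without the filter, mt-Nd1 (edgeR adjusted p = 0.0029). Members at an unadjusted interaction p under 0.05 were 23 with length offsets and 22 to 44 with a brain left out. These counts, and all settings for Coq7 and the rRNAs, were chosen after seeing the data. In males alone the Log2FC turned to 0.03 for Atp5g3, Cox4i1 and Cox7b, 0.02 for Cox6a1, 0.04 for Cox6b1, 0.16 for Cox7a1, 0.01 for Cox7a2, Ndufa4, Ndufa1 and Ndufb11, 0.08 for Ndufa4l2 and -0.16 for Cox4i2. With a brain left out it ranged from -0.18 to 0.06 for Cox6b2, from -0.27 to 0.06 for Cox7a1 and from -0.05 to 0.00 for Cox7b. The causes were not tested. No paired analysis was possible because the labels give the brains animal numbers that no 2 groups share. Low counts limit mt-Co2, mt-Co3, mt-Nd4l and the rare paralogues.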

Other observations

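The mitochondrial ribosomal proteins are also encoded in the nucleus and imported. Of 77 tested, 58 had a stress Log2FC below 0 in females and 11 in males, with medians of -0.05 and 0.06, and 21 (27.3%) had an unadjusted interaction p under 0.05 by edgeR, all lower in females, and 0 were called. With an offset for gene length 7 of the 77 (9.09%) had such a p. Of all genes tested 6.31% had one without the offset and 4.72% with it. For the 16 citric acid cycle and pyruvate dehydrogenase genes the medians were -0.04 and 0.02, and 1 had such a p. Neuron markers (median -0.05 in females and -0.08 in males) and intermediate progenitor markers (0.22 and 0.27) had the same sign in both sexes.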
